A study of Mus musculus with 78 samples.

Results

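The endothelial response to disturbed flow was measured in mice that received atorvastatin, as the difference between the partially ligated left common carotid artery (LCA) and the unligated right common carotid artery (RCA) 24 h after surgery. The arrays were chosen by their labels, atorvastatin and 24 h, and each LCA was paired with the RCA of the same animal, which gave 10 of the 78 arrays of the study, from 5 of its 39 mice (mice 6 to 10). Both arteries were therefore exposed to the drug, given by mouth at 10 mg/kg/day from 2 days before surgery, and differed in the ligation and in the side of the body. The other mice used here were atorvastatin-treated mice at 12 h, 48 h and 2 weeks (5, 4 and 5 mice) and vehicle-treated mice at 24 h (5 mice), all with the same operation. Vehicle-treated mice at 12 h, 48 h and 2 weeks (5 each) entered only the estimate of the spread. The labels used here give no strain, sex or age, no measure of blood lipids or flow, and no sham-operated animal. They mention 4 batches of RNA extraction and array profiling without assigning samples to them, so batch and time or treatment cannot be told apart. Whether both arteries of a mouse shared a batch is not given.

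RNA was flushed from the lumen of each artery with Qiazol, a lysis reagent, which enriches endothelial RNA, and was hybridised to 1 Affymetrix mouse array per artery. Values are on the log2 scale, so a difference of 1 is a doubling, and levels of different genes are not compared. For each gene the RCA value of a mouse was subtracted from its LCA value, so a positive difference means higher in the ligated artery, and what is printed is the mean of 5 such differences. Beside it stand its standard error (SE) from limma and a p-value adjusted by Benjamini-Hochberg over 11341 genes. Both use a spread estimated over all 39 mice of the study, so the SE of a gene can differ from the spread in these 5. A gene is said to have risen or fallen where that adjusted p was under 0.05. Array medians lay between 4.63 and 4.69, and the number of mice limits the precision. In bulk RNA of this kind, fewer cells of a type and less RNA per cell cannot be told apart.

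Endothelial cells read the shear stress of flowing blood. Steady laminar flow keeps the transcription factors KLF2 and KLF4 and the endothelial nitric oxide synthase high, while low and oscillating flow, as in a partially ligated carotid, is known for adhesion molecule expression and for plaque growth in hyperlipidaemic mice. Statins lower cholesterol synthesis, and cells that lack sterol raise their SREBP2 target genes. In cultured endothelial cells statins are known to raise KLF2 and nitric oxide synthase.

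At 24 h under atorvastatin, 1485 of 11341 genes differed between the arteries (13.1% of genes tested), 827 higher (7.29%) and 658 lower (5.8%) in the LCA. Most changes were modest. By at least 1 on the log2 scale, 187 genes rose and 209 fell, and by at least 2, 7 rose and 22 fell, so that the largest changes were mostly falls. Of the 1485 genes, 1322 moved the same way in 5 of 5 mice, and for 862 the 5 LCA values lay wholly above or below the 5 RCA values, against 1215 (10.7%) of all genes tested. Mice 6, 7, 8, 9 and 10 each showed the direction of the mean in 97.4%, 97.0%, 97.9%, 97.5% and 99.1% of the called genes, which the mean of the same mice helped to fix. Called without a given mouse and then read in it, between 89.8% (mouse 6) and 95.8% (mouse 10) of genes had the same sign in the mouse left out. The count itself was lower without any 1 mouse and depended on which, with 1222, 1069, 974, 1088 and 824 genes without mice 6, 7, 8, 9 and 10. The counts of gene lists below stand against the 13.1% called over all genes. Lists with few calls, such as TGF-beta (2 of 15 genes) and circadian (2 of 14), lie near that share. Below, a gene whose call was lost with 1 mouse left out, or under at least 1 of 9 other settings of the analysis (named with the processing), is named after the results it belongs to.

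**Figure D1:**
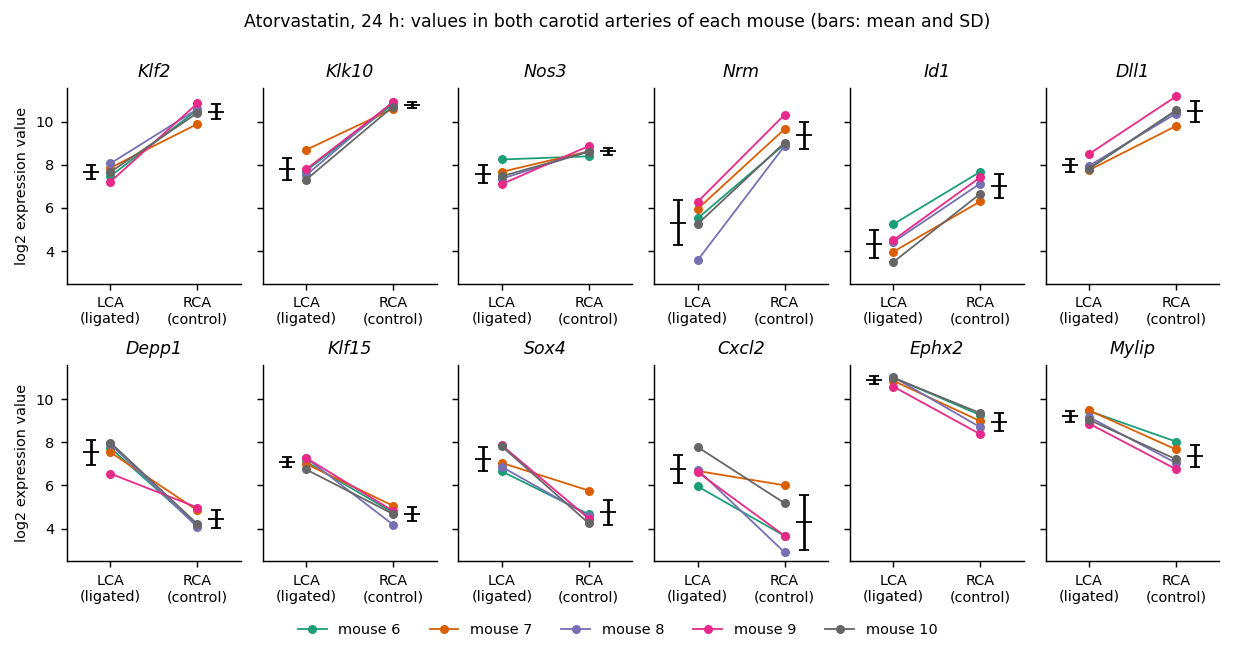
Log2 expression values of 12 genes in the LCA (left in each panel) and RCA (right) of 5 atorvastatin-treated mice at 24 h, 1 line per mouse, with the mean and SD beside the points. Klf2, Klk10, Nos3, Nrm, Id1 and Dll1 were lower in the LCA of every mouse and Depp1, Klf15, Sox4, Cxcl2, Ephx2 and Mylip higher, and the arteries overlap for Cxcl2, whose RCA values spread from 2.91 to 6.01.

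The genes that laminar flow is known to maintain were low in the ligated artery. Of 17 laminar flow-associated genes tested, 11 fell and 0 rose, with a median difference of -0.79 against 0.02 over all genes. Klf2, the flow-induced Kruppel-like factor, had 7.47, 7.86, 8.06, 7.21 and 7.67 in the LCA (mice 6 to 10), against 10.54, 9.89, 10.58, 10.84 and 10.40 in the RCA. Every LCA value lay below every RCA value, and the mean was 0.144 times that of the RCA (-2.79, SE 0.20, adjusted p = 1.01e-11). Klk10, a secreted serine protease known as flow-sensitive in carotid endothelium, had 7.73, 8.69, 7.52, 7.79 and 7.31 in the LCA (mice 6 to 10), against 10.80, 10.59, 10.92, 10.89 and 10.70 in the RCA (-2.97, SE 0.30, adjusted p = 2e-08). The arteries were again apart, and mouse 7 had the smallest fall, -1.90, with the other mice between -3.40 and -3.08. Nos3, the endothelial nitric oxide synthase, had 8.24, 7.67, 7.35, 7.10 and 7.47 in the LCA (mice 6 to 10), against 8.39, 8.62, 8.63, 8.87 and 8.60 in the RCA (-1.05, SE 0.19, adjusted p = 0.000212). The LCA was the lower artery in each mouse, by as little as 0.15 in mouse 6.

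Klf4, the second flow-induced factor of the family, averaged 10.39 ± 0.17 in the LCA and 11.56 ± 0.16 in the RCA (SD, n = 5 each), and its arteries did not overlap (-1.17, SE 0.33, adjusted p = 0.0162). Gch1, the first enzyme of tetrahydrobiopterin synthesis (-1.17, SE 0.26, adjusted p = 0.00193), and Timp3, an inhibitor of matrix proteases (-1.11, SE 0.19, adjusted p = 0.000111), fell likewise. Ptgis, the prostacyclin synthase (-0.91, adjusted p = 3.03e-07), Dusp1, a phosphatase of MAP kinases (-0.82, adjusted p = 0.0115), Slc9a3r2, an exchanger-regulating scaffold (-0.70, adjusted p = 0.00142), the oxidoreductase gene Nqo1 (-0.60, adjusted p = 0.0358) and Thbd, the anticoagulant receptor thrombomodulin (-0.56, adjusted p = 0.0246), made up the rest. The members that did not pass were Pi16 (-0.79), Cyp1b1 (0.67), Tek (-0.19), Hmox1 (0.10), Cav1 (-0.09) and Aqp1 (-0.06). Without mouse 9 the list had 7 falls. Leaving out 1 mouse ended the calls of Klf4 (mouse 6, 9 or 10), Dusp1 (mouse 9), Nqo1 (mouse 6, 7, 8 or 9) and Thbd (mouse 7, 9 or 10). The call of Dusp1 was lost under other settings.

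The promoters of Klf2 and Klk10 are shown because, of 15 windows of laminar flow-associated genes tested, these 2 hold the consensus of MEF2, the factor family known to carry the flow response of Klf2. Each window runs from 250 bases before to 50 bases after the start of the gene in RefSeq's mouse annotation (GRCm38.p6), 5′ to 3′ on the strand of the gene, at chr8:72318812-72319111 (plus strand) and chr7:43780804-43781103 (plus strand). Capitals mark the match, searched on both strands. The consensus occurred in 3.19% of 32851 windows of all genes, in 1.57% of those of tested genes and in 1.74% of those of genes that fell.
Klf2: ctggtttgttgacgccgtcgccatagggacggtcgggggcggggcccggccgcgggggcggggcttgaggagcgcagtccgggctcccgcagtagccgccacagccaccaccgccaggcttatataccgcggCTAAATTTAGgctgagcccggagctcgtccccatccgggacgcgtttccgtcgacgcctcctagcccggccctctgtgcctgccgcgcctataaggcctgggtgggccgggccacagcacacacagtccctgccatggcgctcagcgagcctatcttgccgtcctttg
Klk10: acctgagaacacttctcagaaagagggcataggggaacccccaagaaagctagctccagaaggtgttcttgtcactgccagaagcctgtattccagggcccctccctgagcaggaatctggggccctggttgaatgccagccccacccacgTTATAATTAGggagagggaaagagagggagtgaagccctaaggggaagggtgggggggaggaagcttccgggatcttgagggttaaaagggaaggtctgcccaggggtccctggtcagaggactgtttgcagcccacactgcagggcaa

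Beyond Klf2 and Klk10, the 12 largest falls included transcription regulators, secreted proteins and a phosphatase. Nrm, encoding the nuclear envelope protein nurim, had 5.51, 5.95, 3.57, 6.28 and 5.25 in the LCA (mice 6 to 10), against 8.95, 9.65, 8.87, 10.32 and 9.02 in the RCA, the largest fall (-4.05, SE 0.33, adjusted p = 1.32e-10). Its LCA spread widely, from 3.57 in mouse 8 to 6.28 in mouse 9, and stayed below the RCA. Igfbp5, a binding protein of insulin-like growth factors, had 6.16, 5.54, 5.49, 4.30 and 5.29 in the LCA (mice 6 to 10), against 8.63, 8.04, 7.63, 9.63 and 8.94 in the RCA (-3.22, SE 0.71, adjusted p = 0.00197). Id1, a target of BMP signalling that inhibits basic helix-loop-helix factors, had 5.24, 3.97, 4.42, 4.51 and 3.49 in the LCA (mice 6 to 10), against 7.67, 6.30, 7.13, 7.42 and 6.66 in the RCA (-2.71, SE 0.25, adjusted p = 2.94e-09). Both were lower in the LCA of 5 of 5 mice without overlap. Mob2, a binding partner of NDR kinases (-3.20, SE 0.33, adjusted p = 3.52e-08), the basic helix-loop-helix factor gene Tcf23 (-3.12, SE 0.24, adjusted p = 3.59e-11) and the zinc finger gene Zbtb7c (-3.0, SE 0.33, adjusted p = 7.3e-08) fell too. Spry4, a feedback inhibitor of receptor tyrosine kinase signalling (-2.77, adjusted p = 5.1e-08), Ptp4a3, a phosphatase also known as PRL-3 (-2.60, adjusted p = 9.37e-05), and the antiprotease gene Serpina1b (-2.82, adjusted p = 0.000162) were further falls. Nr4a1, an orphan nuclear receptor induced early after stimuli, had 3.39, 4.56, 4.15, 4.06 and 3.41 in the LCA (mice 6 to 10), against 5.36, 7.75, 5.63, 8.38 and 5.34 in the RCA (-2.58, SE 0.50, adjusted p = 0.000532). Its LCA values were near the low end of the array scale while the RCA ran from 5.34 to 8.38.

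The largest rise was that of Depp1, a target of FoxO factors involved in autophagy, with 7.74, 7.53, 7.91, 6.55 and 7.99 in the LCA (mice 6 to 10), against 4.14, 4.85, 4.08, 4.98 and 4.21 in the RCA, 8.52 times the RCA on average (3.09, SE 0.50, adjusted p = 7.84e-05). Mouse 9 showed the smallest rise, 1.57. Klf15, a glucocorticoid- and fasting-responsive Kruppel-like factor, had 7.09, 7.0, 7.27, 7.27 and 6.74 in the LCA (mice 6 to 10), against 4.75, 5.06, 4.18, 4.82 and 4.68 in the RCA (2.38, SE 0.37, adjusted p = 4.12e-05). Sox4, a transcription factor of the SoxC group, averaged 7.24 ± 0.56 in the LCA and 4.75 ± 0.59 in the RCA (SD, n = 5 each) (2.5, SE 0.45, adjusted p = 0.000262), and 1 of its 5 probe sets moved the other way, by -0.14. Ephx2, the soluble epoxide hydrolase that degrades epoxides of arachidonic acid, had 11, 10.85, 11.02, 10.58 and 10.99 in the LCA (mice 6 to 10), against 9.26, 8.98, 8.70, 8.38 and 9.35 in the RCA (1.96, SE 0.24, adjusted p = 5.93e-07). These 4 genes did not overlap between the arteries. Mylip, a ubiquitin ligase that LXR induces (1.86, SE 0.37, adjusted p = 0.000842), Ugt8a, an enzyme of galactosylceramide synthesis (2.18, SE 0.38, adjusted p = 0.000149), St6galnac3, a sialyltransferase (1.93, adjusted p = 0.000694), and Phactr1, a regulator of protein phosphatase 1 and actin (1.84, adjusted p = 0.00112), were also among the 12 largest. So were Fam174b (2.08, adjusted p = 2.41e-06), Thsd7a, a membrane protein of endothelial migration (1.85, adjusted p = 0.00436), Cxcl2 and the flavin monooxygenase gene Fmo1 (2.20, adjusted p = 0.022). The call of Fmo1 was lost without any 1 of mice 6 to 10 and under 1 of 9 other settings, although its difference lay between 2.05 and 2.25 in these 5 mice. Its SE of 0.66 comes from the fit of all 39 mice.

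Genes of the FoxO and fasting-type list and of growth arrest rose more often than they fell. Over all genes tested, 7.29% rose and 5.8% fell. Of 15 FoxO and fasting-type genes, 7 rose and 1 fell (median 0.49). Beside Depp1 and Klf15 these were Pdk4, a kinase that restrains pyruvate oxidation, with 9.13, 9.63, 8.83, 9.85 and 9.20 in the LCA (mice 6 to 10), against 7.01, 8.24, 6.64, 8.91 and 7.09 in the RCA (1.75, SE 0.24, adjusted p = 6.27e-06), Ccng2, an unconventional cyclin of quiescent cells (1.23, SE 0.21, adjusted p = 9.95e-05), the sestrin gene Sesn3 (1.19, adjusted p = 0.00109), Bcl6 (0.80, adjusted p = 0.00501) and the transcription factor gene Foxo3 itself (0.66, adjusted p = 0.00109). The arteries overlapped for Pdk4, whose RCA in mouse 9 was 8.91, above the LCA of mouse 8. The other probe set of Bcl6 moved the other way, by -0.31. Trib1, a pseudokinase, fell (-0.61, adjusted p = 0.0242), and Foxo1 did not pass (-0.10, adjusted p = 0.715). Among 15 growth arrest and p53 genes, 4 rose and 1 fell (median 0.09). Plk2, a kinase of centriole duplication and stress, had 9.49, 9.55, 9.53, 9.18 and 9.48 in the LCA (mice 6 to 10), against 7.59, 7.99, 7.54, 7.37 and 8.10 in the RCA (1.73, SE 0.22, adjusted p = 1.91e-06), Trp53inp1 rose by 1.0 (adjusted p = 0.00203) and the cell cycle inhibitor Cdkn1b by 0.60 (adjusted p = 0.0147), while Phlda3, a p53 target that restrains AKT, fell (-1.33, adjusted p = 0.00026). Cdkn1a, the p21 gene, did not pass (-0.30, adjusted p = 0.639). With 1 mouse left out, the calls lost were those of Trib1 (mouse 7 or 9) and Cdkn1b (mouse 8 or 10). Other settings ended the calls of Bcl6, Trib1 and Cdkn1b.

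Members of the BCL2 family moved in both directions, 2 up and 2 down of 13 (median -0.06). Bcl2l11, the pro-apoptotic BIM, had 9.81, 9.68, 9.97, 9.95 and 9.53 in the LCA (mice 6 to 10), against 8.72, 8.62, 8.09, 8.28 and 8.24 in the RCA (1.4, SE 0.16, adjusted p = 1.85e-07), without overlap. Birc3, an inhibitor of apoptosis and NF-kB target, rose in 4 of 5 mice (1.04, SE 0.21, adjusted p = 0.000874). Bcl2l1, the anti-apoptotic BCL-XL, fell (-1.32, SE 0.36, adjusted p = 0.0109), and so did Mcl1, another survival member (-0.34, adjusted p = 0.0441). The fall of Bcl2l1 was -2.87 in mouse 8 and between -1.15 and -0.64 in the others. The calls of Bcl2l1 (mouse 8) and Mcl1 (any 1 of the 5) did not hold without the mouse named. Under other settings the calls of Bcl2l1 and Mcl1 were lost. No gene of the cell cycle list passed, 0 of 23 by limma and 0 at an unadjusted p under 0.05 (median 0.19, range -0.31 to 0.76).

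Of 18 genes of endothelial inflammation and adhesion, 7 rose and 1 fell (median 0.53). The neutrophil-attracting chemokine gene Cxcl2 had 5.96, 6.67, 6.73, 6.62 and 7.78 in the LCA (mice 6 to 10), against 3.66, 6.01, 2.91, 3.67 and 5.18 in the RCA (2.47, SE 0.47, adjusted p = 0.000491). The LCA was higher in every mouse, but the RCA of mouse 7 lay above the lowest LCA value. Its neighbour Cxcl1 had 9.07, 9.26, 9.54, 9.69 and 9.73 in the LCA (mice 6 to 10), against 7.86, 8.57, 7.63, 8.40 and 8.29 in the RCA, without overlap (1.30, SE 0.25, adjusted p = 0.000424). Tnfaip3, a deubiquitinase that ends NF-kB signalling, averaged 8.81 ± 0.54 in the LCA and 7.52 ± 0.35 in the RCA (SD, n = 5 each) and rose in 5 of 5 mice (1.30, SE 0.22, adjusted p = 0.000135). Icam1, an adhesion molecule for leukocyte integrins, had 11.12, 11.03, 11.19, 11.62 and 11.34 in the LCA (mice 6 to 10), against 10.72, 10.95, 10.61, 10.37 and 10.75 in the RCA (0.58, SE 0.13, adjusted p = 0.00264), and Selp, the P-selectin of platelets and endothelium (0.55, adjusted p = 0.00207), was also apart between the arteries. Bmp4 rose (0.54, adjusted p = 0.00769) and Nfkbiz, an inducible IkB family member, fell (-0.63, adjusted p = 0.0209). Vcam1, another adhesion molecule, was higher in 5 of 5 mice without passing the test (0.49, SE 0.19, adjusted p = 0.0954). The leukocyte chemokine and receptor list had 0 of 12 genes called by limma, 0 of them at an unadjusted p under 0.05 (median 0.23). Leaving out 1 mouse ended the call of Nfkbiz (mouse 7 or 8). The call of Icam1 was lost under other settings.

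The windows around the starts of Cxcl1, Cxcl2 and Tnfaip3 are printed because these 3, of the 7 genes that rose in that list, hold the NF-kB consensus. It was searched on both strands, and overlapping matches appear as 1 run of capitals. The sequences are those of RefSeq (GRCm38.p6), at chr5:90890995-90891294 (plus strand), chr5:90903649-90903948 (plus strand) and chr10:19015361-19015660 (minus strand). The consensus occurred in 4.51% of all windows, in 5.17% of those of tested genes, in 5.85% of those of genes that rose and in 5.94% of those of genes that fell. Of 14 genes of the list with a window 6 held it, the other 3 being Csf1 (0.31), Nfkbia (0.16) and Cxcl10 (0.36), which did not pass the test of expression.
Cxcl1: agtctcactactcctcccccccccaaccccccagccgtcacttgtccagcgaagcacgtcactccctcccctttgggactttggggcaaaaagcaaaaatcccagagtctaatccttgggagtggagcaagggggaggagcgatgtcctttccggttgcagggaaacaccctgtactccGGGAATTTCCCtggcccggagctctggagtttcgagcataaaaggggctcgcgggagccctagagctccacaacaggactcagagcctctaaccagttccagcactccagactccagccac
Cxcl2: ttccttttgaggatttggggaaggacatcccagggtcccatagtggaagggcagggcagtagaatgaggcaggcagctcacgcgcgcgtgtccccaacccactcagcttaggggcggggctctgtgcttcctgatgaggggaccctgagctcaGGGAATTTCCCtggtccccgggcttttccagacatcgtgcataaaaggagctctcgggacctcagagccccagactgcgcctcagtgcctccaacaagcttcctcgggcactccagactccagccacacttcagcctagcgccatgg
Tnfaip3: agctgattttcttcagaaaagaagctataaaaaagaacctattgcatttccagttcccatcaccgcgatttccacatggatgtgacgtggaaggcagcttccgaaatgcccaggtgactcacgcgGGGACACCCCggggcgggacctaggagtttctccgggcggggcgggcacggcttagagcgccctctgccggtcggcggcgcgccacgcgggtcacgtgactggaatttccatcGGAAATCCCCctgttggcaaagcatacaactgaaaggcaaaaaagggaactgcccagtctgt

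In mouse 7 several genes of this kind were high in the control artery. Edn1, encoding the vasoconstrictor endothelin-1, had 10.28, 9.91, 9.71, 10.14 and 9.74 in the LCA (mice 6 to 10), against 7.86, 10.58, 7.99, 6.61 and 8.89 in the RCA (1.57, SE 0.33, adjusted p = 0.00124). It was higher in the LCA of 4 mice and lower in mouse 7, whose RCA held the highest of the 10 values. Ccn2, the connective tissue growth factor and a YAP/TAZ target, had 10.88, 11.39, 9.72, 11.50 and 10.65 in the LCA (mice 6 to 10), against 8.10, 11.98, 7.45, 9.19 and 8.34 in the RCA (1.82, SE 0.35, adjusted p = 0.000606), and the stress gene Gadd45a had 5.32, 5.97, 5.55, 6.80 and 6.90 in the LCA (mice 6 to 10), against 3.75, 6.70, 4.51, 3.36 and 3.95 in the RCA (1.65, SE 0.44, adjusted p = 0.0102). Both were also higher in the LCA of 4 mice and lower in mouse 7. Sele, the E-selectin gene, chosen after its values were seen, had 7.36, 7.90, 7.38, 8.86 and 8.57 in the LCA (mice 6 to 10), against 7.21, 10.22, 6.89, 7.60 and 7.31 in the RCA, and did not pass (0.17, SE 0.66, adjusted p = 0.909). Without mouse 7 the mean differences were 2.13 for Edn1, 2.42 for Ccn2, 2.25 for Gadd45a and 0.79 for Sele. The smooth muscle marker Acta2 was also higher in the RCA of mouse 7 (11.02) than in its LCA (9.91). The other tested smooth muscle markers of mouse 7 went both ways, as LCA minus RCA. Myh11 (2.96), Itga8 (0.79), Myocd (0.58), Cnn1 (0.52) and Lmod1 (0.21) were higher in the LCA, and Actg2 (-0.14) and Mylk (-0.11) lower. In mouse 9 Acta2 was likewise higher in the RCA (8.48 in the LCA and 10.48 in the RCA), and the difference in Edn1 was 3.52. The part of smooth muscle RNA in these values was not tested. With 1 mouse left out, the call lost was that of Gadd45a (mouse 9 or 10). Other settings ended the calls of Edn1, Ccn2 and Gadd45a. Their SEs come from the fit of all 39 mice. The SD of the 5 differences was 1.59 for Edn1, 1.36 for Ccn2 and 1.65 for Gadd45a. With only these 5 mice in the limma fit, adjusted p was 0.112, 0.0527 and 0.110 in that order.

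Signalling between endothelial cells changed member by member. Of 17 Notch and arterial identity genes, 4 rose and 5 fell (median 0.11). The Notch ligand gene Dll1 had 7.82, 7.75, 7.95, 8.50 and 7.82 in the LCA (mice 6 to 10), against 10.50, 9.79, 10.37, 11.16 and 10.52 in the RCA, without overlap (-2.5, SE 0.27, adjusted p = 6.1e-08), and the ligand Jag1 fell, with 8.22 ± 0.20 in the LCA and 9.31 ± 0.16 in the RCA (SD, n = 5 each) (-1.09, SE 0.23, adjusted p = 0.00109). The receptor Notch1 (-0.74, adjusted p = 0.00089) and the netrin receptor Unc5b (-1.01, adjusted p = 0.0409) fell as well, whereas the ligand Dll4, typical of tip and arterial cells, did not pass (0.11, adjusted p = 0.789). Hey1, a direct Notch target, rose (0.61, adjusted p = 0.0463), as did Sox17 (0.67, adjusted p = 0.00455) and the semaphorin and VEGF co-receptor Nrp1 (0.64, adjusted p = 0.0357). The 2 arterial connexins moved in opposite directions. Gja5 had 8.69, 8.77, 8.32, 9.51 and 7.24 in the LCA (mice 6 to 10), against 10.39, 10.26, 10.28, 10.98 and 10.66 in the RCA (-2.0, SE 0.43, adjusted p = 0.00175), and Gja4 had 8.96, 8.82, 8.64, 7.92 and 8.38 in the LCA (mice 6 to 10), against 7.52, 7.67, 7.69, 6.73 and 7.65 in the RCA (1.09, SE 0.19, adjusted p = 0.000155). Neither overlapped between the arteries, and the fall of Gja5 was largest in mouse 10, -3.41. The calls of Unc5b (mouse 7, 8, 9 or 10), Sox17 (mouse 10), Nrp1 (any 1 of the 5) and Hey1 (mouse 7, 8, 9 or 10) did not hold without the mouse named. Under other settings the calls of Unc5b, Nrp1 and Hey1 were lost.

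BMP and ALK1 signalling had 2 rises and 2 falls among 12 genes (median 0.01). Beside Id1, the receptor ALK1 itself, Acvrl1, fell, and averaged 8.52 ± 0.30 in the LCA and 9.48 ± 0.14 in the RCA (SD, n = 5 each), without overlap (-0.97, SE 0.13, adjusted p = 2.85e-06). The ligand Bmp6 (0.77, SE 0.15, adjusted p = 0.000754) and the co-receptor endoglin, Eng (0.57, adjusted p = 0.0126), rose. The rise of Bmp6 was 1.51 in mouse 9 and between 0.49 and 0.70 in the others. Id3, a close relative of Id1, differed by 0.00 (adjusted p = 0.998). In the TGF-beta list of 15 genes, Tgfbr3, the betaglycan co-receptor, rose (1.06, adjusted p = 0.00937) and the ligand Tgfb2 fell (-0.92, adjusted p = 0.0407). Of 17 genes of the angiopoietin, VEGF and tip cell list, 1 rose and 3 fell (median -0.19). Angpt2, a ligand that destabilises vessels, had 5.27, 5.29, 5.49, 5.64 and 5.73 in the LCA (mice 6 to 10), against 3.86, 3.65, 3.65, 3.34 and 3.92 in the RCA (1.8, SE 0.59, adjusted p = 0.0369). The arteries were far apart in these mice, and its second probe set differed by -0.08. Flt1, a VEGF receptor that acts as a decoy (-1.45, SE 0.25, adjusted p = 0.000154), Cd34, a sialomucin of endothelium (-0.93, adjusted p = 0.000554), and Plaur, the urokinase receptor (-1.12, adjusted p = 0.00619), fell. Kdr, the main VEGF receptor, did not pass (-0.42, adjusted p = 0.381) and was dim, with averages of 4.76 in the LCA and 5.17 in the RCA. Leaving out 1 mouse ended the calls of Eng (mouse 9 or 10), Tgfbr3 (mouse 8), Tgfb2 (mouse 7, 8, 9 or 10), Angpt2 (any 1 of the 5) and Plaur (mouse 7). The calls of Eng, Tgfbr3, Tgfb2, Angpt2 and Flt1 were lost under other settings.

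Channels and receptors of mechanosensing were mostly low where they changed, 3 down and 1 up of 10 (median -0.26). P2ry2, a nucleotide receptor of the flow response, had 3.67, 3.64, 3.44, 3.83 and 3.20 in the LCA (mice 6 to 10), against 5.61, 4.97, 4.53, 5.90 and 5.69 in the RCA (-1.78, SE 0.32, adjusted p = 0.000247). Trpv4, a calcium channel (-1.49, SE 0.29, adjusted p = 0.0007), and Kcnn4, a calcium-activated potassium channel (-1.14, SE 0.19, adjusted p = 0.000104), fell without overlap, and Trpm7 rose (0.52, adjusted p = 0.0213). The mechanically gated channel Piezo1 did not pass (-0.42, adjusted p = 0.158). Of 12 integrin subunits, Itgb1 (-0.91, adjusted p = 0.00332) and Itgb4 (-1.24, adjusted p = 0.0144) fell and Itgb5 rose (0.99, adjusted p = 0.00745). With 1 mouse left out, the calls lost were those of Trpm7 (mouse 7, 8 or 10), Itgb4 (mouse 7 or 10) and Itgb5 (mouse 7). Other settings ended the calls of Trpm7, Itgb1, Itgb4 and Itgb5.

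Sterol genes, whose rise is the known response to statins, were compared between arteries that had both received the drug. Of 15 genes of cholesterol synthesis and uptake tested, 3 rose and 1 fell (median 0.05). Insig1, a sterol sensor of the endoplasmic reticulum and SREBP target, had 9.11, 9.38, 9.59, 9.14 and 9.39 in the LCA (mice 6 to 10), against 8.32, 8.75, 8.38, 8.17 and 8.33 in the RCA, without overlap (0.93, SE 0.16, adjusted p = 0.000206). Idi1, an isomerase of isoprenoid synthesis (0.81, SE 0.20, adjusted p = 0.00697), and Stard4, a sterol carrier (0.56, adjusted p = 0.0138), rose. Sqle, the squalene epoxidase, had 2.90, 3.39, 4.02, 3.07 and 3.66 in the LCA (mice 6 to 10), against 3.33, 4.43, 6.01, 4.16 and 3.38 in the RCA (-0.85, SE 0.29, adjusted p = 0.0487). It was near the low end of the scale, the arteries overlapped and 1 mouse went the other way. Lss (0.80, adjusted p = 0.0619) and Msmo1 (-0.74, adjusted p = 0.0798), which act after Sqle in the same pathway, did not pass. Hmgcs1, an early enzyme of the pathway, was too dim to be tested. In the LXR list, the cholesterol exporter Abcg1 had 8.19, 7.90, 8.26, 7.29 and 8.63 in the LCA (mice 6 to 10), against 7.26, 6.94, 6.81, 6.62 and 7.88 in the RCA (0.95, SE 0.19, adjusted p = 0.000644) and rose with Mylip, 2 of 7 genes. Fasn (0.69, adjusted p = 0.0477) and Fads2 (0.51, adjusted p = 0.0316) rose among 10 genes of fatty acid synthesis. The calls of Idi1 (mouse 10), Stard4 (mouse 7, 8 or 10), Sqle (mouse 6, 7, 8 or 9), Fasn (mouse 7, 8, 9 or 10) and Fads2 (mouse 6, 7, 8 or 9) did not hold without the mouse named. Under other settings the calls of Stard4, Sqle, Fasn and Fads2 were lost.

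Stress programmes were divided. Of 10 heat shock genes 3 fell and 0 rose (median -0.28). Cryab, the small heat shock protein alpha-B crystallin, had 7.01, 7.81, 7.37, 6.60 and 7.85 in the LCA (mice 6 to 10), against 9.32, 9.14, 9.55, 8.35 and 9.37 in the RCA (-1.82, SE 0.35, adjusted p = 0.000532), and Hspb1 (-1.24, adjusted p = 0.0136) and Hsp90aa1 (-0.61, adjusted p = 0.0358) fell less. In the unfolded protein and amino acid response, 3 of 20 genes rose and 2 fell. Chac1, which degrades glutathione (1.38, adjusted p = 0.00814), and the pseudokinase Trib3 (0.96, adjusted p = 0.00993) were higher, Xbp1 was higher by a small amount (0.32, adjusted p = 0.0441), and the chaperones Manf (-0.95, adjusted p = 0.0163) and Pdia6 (-0.57, adjusted p = 0.00734) were lower. Trib3 in mouse 6 rose by 0.39, against 1.03 to 1.19 in the other mice. The glycolytic activator Pfkfb3 had 9.46, 9.31, 9.38, 9.81 and 9.31 in the LCA (mice 6 to 10), against 8.14, 8.82, 7.61, 7.75 and 8.27 in the RCA, without overlap (1.34, SE 0.19, adjusted p = 9.66e-06), and rose with Bnip3 (0.80, adjusted p = 0.00321) and Pdk1 (0.71, adjusted p = 0.0231), 3 of 16 hypoxia and glycolysis genes, although the median of that list was -0.17. Catalase, Cat, rose (0.60, adjusted p = 0.00534). Of 16 respiratory chain and 15 ribosome biogenesis genes 0 passed limma's test, and 4 and 3 had an unadjusted p under 0.05. Glucocorticoid-responsive genes were split, with Slc10a6 (1.66, adjusted p = 0.0145) and Fkbp5 (0.79, adjusted p = 0.0202) higher and Tsc22d3 (-0.84, adjusted p = 0.00791) lower. For Fkbp5, 1 of 3 probe sets moved the other way, by -0.06. In the circadian list Bhlhe40 fell (-1.09, adjusted p = 0.00143) and Hlf rose (0.71, adjusted p = 0.0379). Leaving out 1 mouse ended the calls of Hspb1 (mouse 8, 9 or 10), Hsp90aa1 (any 1 of the 5), Chac1 (mouse 9), Xbp1 (any 1 of the 5), Manf (mouse 8 or 10), Pdia6 (mouse 10), Pdk1 (mouse 6, 7, 8 or 10), Slc10a6 (mouse 8 or 9), Fkbp5 (mouse 6 or 8), Tsc22d3 (mouse 9) and Hlf (mouse 6, 7, 8 or 10). The calls of Hspb1, Hsp90aa1, Xbp1, Manf, Pdia6, Pdk1, Fkbp5, Tsc22d3 and Hlf were lost under other settings.

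Among 18 immediate early genes, 3 fell and 0 rose (median -0.43). They were Nr4a1, Ier2, with 4.66, 4.28, 4.17, 4.60 and 4.39 in the LCA (mice 6 to 10), against 5.31, 6.89, 5.79, 6.35 and 5.40 in the RCA (-1.53, SE 0.27, adjusted p = 0.00017), and the AP-1 subunit Jun (-0.71, SE 0.16, adjusted p = 0.00276). Egr1 was lower in 5 of 5 mice but did not pass (-0.93, adjusted p = 0.109). Of 9 ERK feedback genes Spry4 and the cyclin Ccnd1 (-1.03, adjusted p = 0.0432) fell. In the extracellular matrix list 5 of 21 genes fell and 0 rose (median -0.39). The collagen VI chain Col6a3 had 4.73, 6.38, 5.89, 4.45 and 6.40 in the LCA (mice 6 to 10), against 7.65, 7.33, 8.43, 7.89 and 7.38 in the RCA (-2.16, SE 0.37, adjusted p = 0.000127), and elastin, Eln, had 9.80, 10.19, 8.99, 8.48 and 9.93 in the LCA (mice 6 to 10), against 11.26, 11.66, 11.12, 10.25 and 11.42 in the RCA (-1.66, SE 0.21, adjusted p = 1.34e-06). Both were apart between the arteries. Col8a1 (-1.11, adjusted p = 0.00125), the crosslinking enzyme Lox (-0.97, adjusted p = 0.0264) and Col18a1, the source of endostatin (-0.85, adjusted p = 0.0165), fell too, and without mouse 8 the list had 3 falls. The protease Adamts1 fell likewise (-1.07, adjusted p = 0.0106). In mouse 9 the smooth muscle markers averaged 1.63 lower in the LCA than in the RCA, while in the other mice they averaged 0.20 to 0.43 higher. Eln without mouse 9 differed by -1.64. The part of smooth muscle or fibroblast RNA in the matrix values was not tested. Annexin Anxa2, a plasminogen co-receptor, fell (-1.36, adjusted p = 1.16e-05) and Tfpi, the tissue factor pathway inhibitor, rose (0.75, adjusted p = 0.00897). Of 10 antigen presentation genes the MHC class II genes H2-Ab1 (1.53, adjusted p = 0.0207) and H2-Aa (1.21, adjusted p = 0.0435) rose, each in 4 of 5 mice. C2 of the complement list fell (-1.23, adjusted p = 0.00962), Gbp3 of the interferon list rose (0.87, adjusted p = 0.0234), and the DNA methyltransferase gene Dnmt3b rose (1.31, adjusted p = 0.000388), with its other probe set at -0.14. With 1 mouse left out, the calls lost were those of Ccnd1 (mouse 6, 7, 8 or 10), Lox (mouse 6, 7, 8 or 10), Col18a1 (mouse 8), Adamts1 (mouse 6), Tfpi (mouse 10), H2-Ab1 (mouse 7 or 8), H2-Aa (mouse 7, 8, 9 or 10), C2 (mouse 9) and Gbp3 (mouse 6, 7, 9 or 10). Other settings ended the calls of Ccnd1, Lox, Tfpi, H2-Ab1, H2-Aa and Gbp3.

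**Figure D2:**
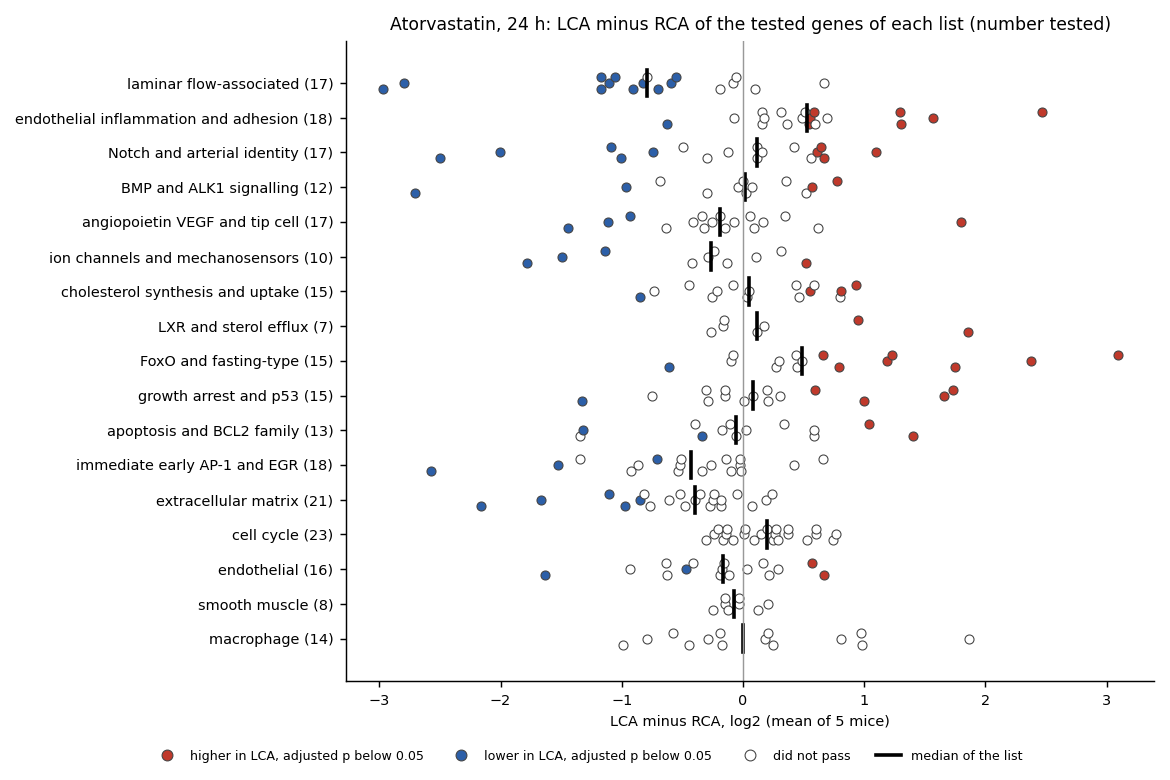
LCA minus RCA differences (log2, mean of 5 atorvastatin-treated mice at 24 h) of the tested genes of 17 lists, 1 point per gene, red where the gene rose, blue where it fell and white where it did not pass, with the median of each list as a black bar. The laminar flow-associated list lies mostly to the left (median -0.79) and the FoxO and inflammation lists to the right (0.49 and 0.53), while the cell cycle, smooth muscle and macrophage lists have no called gene.

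The flushed RNA carried most endothelial markers at high levels in both arteries. Robo4 (4.59 in the LCA and 4.30 in the RCA) and Kdr (4.76 and 5.17) were dim. Averaged over 16 endothelial markers, the level ran from 9.12 to 9.62 in the LCA and 9.45 to 9.66 in the RCA, and the arteries overlapped. The defining gene Pecam1 averaged 11.54 ± 0.19 in the LCA and 11.69 ± 0.13 in the RCA (SD, n = 5 each). Cdh5, the cadherin of endothelial junctions, averaged 11.11 ± 0.25 in the LCA and 11.23 ± 0.09 in the RCA (SD, n = 5 each). Neither passed the test of difference (-0.15 and -0.11). Among the 16, the adhesion molecule Icam2 (-1.63, adjusted p = 8.23e-06) and the surface protein Ecscr (-0.47, adjusted p = 0.00224) fell, and endomucin, Emcn (0.67, adjusted p = 0.0496), and Eng rose. Icam2 fell by 2.14 in mouse 10 and by 1.43 to 1.61 in the others. Without passing, Cldn5 (-0.94), Tie1 (-0.63), Plvap and Tek were lower in the LCA of every mouse, and Vwf and Erg were higher in every mouse. Of other cell types, smooth muscle markers averaged 5.48 to 6.04 in the LCA and 5.29 to 7.36 in the RCA, macrophage markers 4.86 to 7.15 in the LCA and 5.09 to 6.37 in the RCA, neutrophil markers 3.76 to 5.16 in the LCA and 3.48 to 3.82 in the RCA and adipocyte markers 4.43 to 7.16 in the LCA and 4.19 to 7.92 in the RCA. Fibroblast markers averaged 6.75 to 8.07 in the LCA and 7.65 to 7.96 in the RCA. T cell markers lay near the low end of the scale, 3.53 to 3.69 in the LCA and 3.58 to 3.76 in the RCA, and no marker of B cells or thyroid was bright enough to be tested. No macrophage, neutrophil, T cell, platelet, erythroid, adipocyte or smooth muscle marker passed limma's test, 0 of 46 genes in these lists, with 2 at an unadjusted p under 0.05. Of the neutrophil markers, S100a8 (0.47 to 3.08), S100a9 (0.50 to 3.11) and Cxcr2 (0.02 to 2.12) were nevertheless higher in the LCA of every mouse. Csf3r and Il1r2 went both ways, and Mmp9 and Ltf were lower in the LCA on average.

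Markers of other cells were in part bright, and their differences varied from mouse to mouse. Averages in the LCA and RCA were 9.17 and 9.99 for the fibroblast marker Dcn. For the smooth muscle marker Acta2 they were 9.33 and 9.36, with array medians of 4.63 to 4.69. The macrophage marker Mpeg1 had 5.73, 8.21, 6.70, 6.10 and 6.73 in the LCA (mice 6 to 10), against 5.17, 4.41, 3.83, 5.97 and 4.76 in the RCA (1.86, SE 0.69, adjusted p = 0.071). Averaged over 14 macrophage markers, the LCA minus RCA difference was -0.62, 1.60, 0.58, -0.25 and -0.67 in mice 6 to 10, so that both signs occurred. Of 9 fibroblast markers tested 2 fell, Mfap5 (-1.13, adjusted p = 0.00026) and Serpinf1 (-1.16, adjusted p = 0.00775), and 0 rose. The other fibroblast markers did not pass. Among them only Lum was higher in the LCA on average, at 1.0 (higher in 4 of 5 mice). Pdgfra was at -0.05, Col14a1 at -0.20, Pi16 at -0.79 and Dcn at -0.82. Dpt (9.64 in the LCA and 10.4 in the RCA) and Col1a1 (8.34 and 8.96) were lower too, and the median of the list was -0.77. Of 3 lymphatic markers tested 1 fell, Lyve1, also made by macrophages (-2.12, adjusted p = 0.00093), and of 4 dendritic cell markers 1 fell, the transcription factor Zbtb46, also of endothelial cells (-0.85, adjusted p = 0.000234). The MHC class II genes rose most in mice 7 and 8, where macrophage markers were higher in the LCA. The part of these cells in those values was not tested. The call of Emcn (mouse 6, 7, 9 or 10) did not hold without the mouse named. Under other settings the call of Emcn was lost.

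RNA quality differed between the arteries in most mice. The log2 ratio of 3′ to 5′ signal at the array's Gapdh control probes, which rises as RNA is degraded or incompletely copied, was 4.12, 4.63, 4.94, 4.52 and 4.62 in the LCA of mice 6 to 10, against 4.35, 3.89, 4.25, 3.93 and 4.06 in the RCA. It was higher in the LCA of 4 of 5 mice, by 0.47 ± 0.40 on average (SD, n = 5), and lower in mouse 6 (exact two-sided sign-flip permutation test, p = 0.125, where 5 mice can give no less than 0.0625). With this ratio as a covariate of the limma fit, 945 genes were called, 490 higher and 455 lower. In mouse 6, with the ratio turned the other way, 89.8% of the 1222 genes called without it had the same sign, the lowest share of the 5 mice. In mouse 7, with the largest ratio difference (0.74), the share was 90.3%. The part of RNA quality in these shares was not tested. For the beta-actin control the ratio differed by 0.10 ± 0.27 (p = 0.5 by the same exact permutation test).

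**Figure D3:**
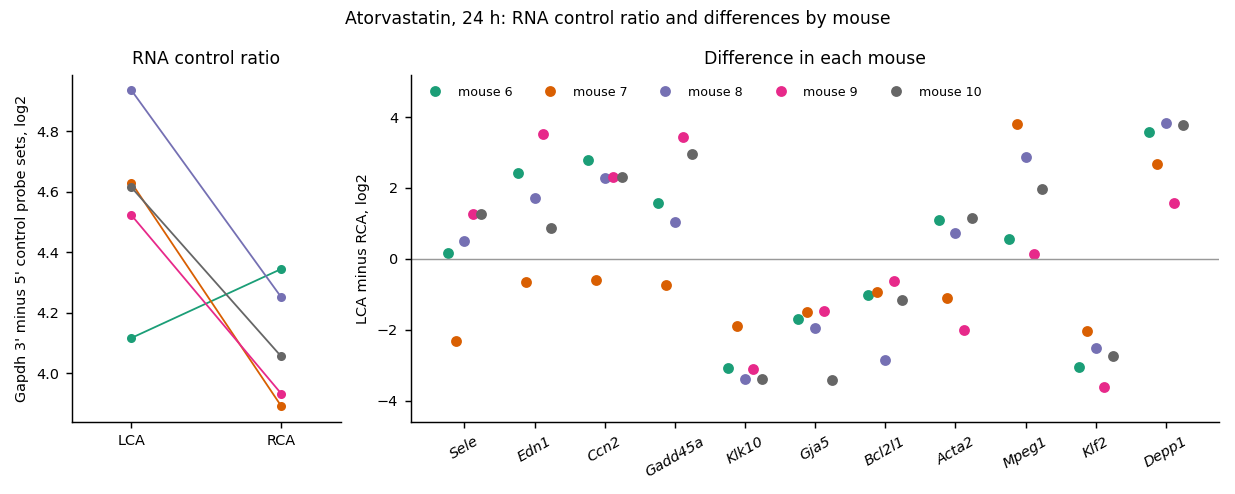
Left, the log2 end ratio (3′ over 5′) of the Gapdh control in the LCA and RCA of each of the 5 atorvastatin-treated mice at 24 h; right, the LCA minus RCA difference (log2) of 11 genes in each mouse. Sele, Edn1, Ccn2 and Gadd45a were below 0 in mouse 7 alone, while Klf2 lay below 0 and Depp1 above 0 in all 5 mice.

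To ask whether the drug altered the response to ligation, the differences of the atorvastatin-treated mice were set against those of vehicle-treated mice at 24 h. These were separate animals. RNA quality differed more between the arteries under vehicle. The Gapdh ratio was higher in the LCA of 5 of 5 vehicle-treated mice, by 0.94 ± 0.58 (SD, n = 5), against 0.47 ± 0.40 under atorvastatin. With that ratio as a covariate of the limma fit, 0 genes had a called difference of differences between the treatments. In vehicle-treated mice 1620 genes were called (14.3% of genes tested), 816 higher and 804 lower in the LCA. Called in both treatments, always in the same direction, were 951 genes, 64.04% of the atorvastatin calls and 58.7% of the vehicle calls. Of the 1485 genes called under atorvastatin, 1453 (97.8%) had the same sign under vehicle, against 76.98% of all genes tested. Across the 11341 genes, which are not independent replicates, the 2 sets of differences correlated with Pearson's r = 0.785 and Spearman's rank correlation = 0.725. Genes that rose under atorvastatin had a median of 0.73 there and 0.57 under vehicle, and those that fell -0.81 and -0.71. Genes that rose under vehicle had a median of 0.61 under atorvastatin and 0.73 under vehicle, so that each set was larger in the mice used to choose it.

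No gene had a called difference of differences between the treatments, 0 of 11341 (0%) by limma, with 296 genes at an unadjusted p under 0.05. Klf2 fell by 2.79 under atorvastatin and by 3.01 under vehicle, a difference of 0.22, 95% interval -0.36 to 0.79. For Nos3 the differences were -1.05 and -1.32 (0.27, 95% interval -0.27 to 0.81), for Klk10 -2.97 and -3.20 (0.23, 95% interval -0.64 to 1.09), and for Klf4 -1.17 and -1.41 (0.25, 95% interval -0.71 to 1.21). Each interval includes 0 and extends beyond 0.50, so that an upward shift of that size under the drug is not excluded. Icam1 differed by 0.16, 95% interval -0.22 to 0.54 and Vcam1 by 0.19, 95% interval -0.37 to 0.75. Of the sterol genes, Insig1 was 0.93 under atorvastatin and 0.99 under vehicle (-0.06, 95% interval -0.54 to 0.41). Sqle was -0.85 and 0.19 (-1.05, 95% interval -1.89 to -0.20, unadjusted p = 0.0163 by limma, adjusted p = 1). By list, laminar flow-associated genes had 11 falls under atorvastatin and 10 under vehicle, FoxO and fasting-type genes 7 rises in each, inflammation genes 7 rises in each, and antigen presentation genes 2 rises and 0. These 2, H2-Aa and H2-Ab1, were also higher in the LCA of every vehicle mouse, by 0.542 to 1.585 and by 0.219 to 1.555. Of 10 antigen presentation genes tested, 0 differed between treatments by limma, and 0 had an unadjusted p under 0.05.

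The 5 genes with the smallest p for the difference between treatments were Asb8, Ppp1r3f, Fbxl12, Fzd1 and Mpp6, all short of the adjusted threshold. Fbxl12, an F-box protein of ubiquitin ligases, rose by 1.70 under atorvastatin (adjusted p = 1.09e-05), against 0.23 under vehicle (difference 1.47, adjusted p = 0.521). Its differences were 1.54, 1.84, 2.48, 1.65 and 0.98 in atorvastatin mice 6 to 10. Fzd1, a receptor of Wnt proteins, was higher in the LCA of 5 of 5 atorvastatin mice (0.19, 0.84, 0.46, 0.94 and 0.17) and lower in 5 of 5 vehicle mice (difference 1.15, adjusted p = 0.521). Neither passed. Sele averaged 0.17 under atorvastatin and 2.36 under vehicle (unadjusted p = 0.0247, adjusted p = 1), and without mouse 7 the atorvastatin value was 0.79. Within 1 artery, 0 genes differed between atorvastatin and vehicle by limma in the LCA (0%, 309 at an unadjusted p under 0.05) and 0 in the RCA (0%, 452).

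**Figure D4:**
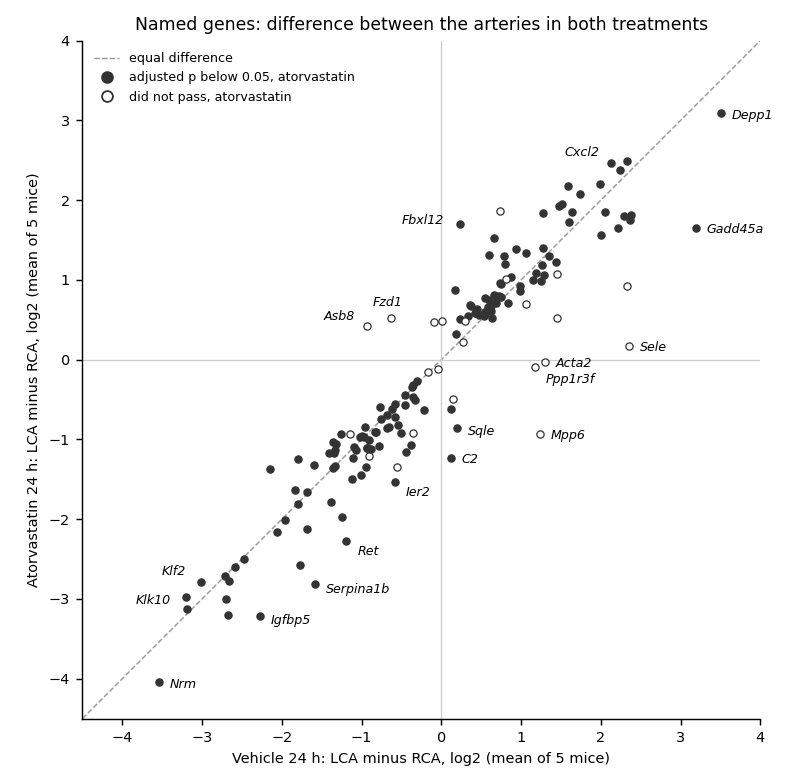
LCA minus RCA differences (log2) at 24 h of the named genes, with the mean of 5 atorvastatin-treated mice on the vertical axis and the mean of 5 vehicle-treated mice on the horizontal axis, 1 point per gene. Klf2 (-2.79 and -3.01) and Depp1 (3.09 and 3.51) lie near the line of equal values, and Sele (0.17 and 2.36) away from it.

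The same operation under atorvastatin was sampled at 4 times in separate mice. The numbers of genes called were 191 (1.68%) at 12 h, 1485 at 24 h, 3610 (31.8%) at 48 h and 3395 (29.9%) at 2 weeks. Genes that rose at 24 h had median differences of 0.29 at 12 h, 0.73 at 24 h, -0.07 at 48 h and -0.04 at 2 weeks. Those that fell at 24 h had medians of -0.33, -0.81, -0.35 and -0.32 at the same times. Both sets were chosen by their 24 h values. Klf2 was low at every time (-3.04 at 12 h, -2.79 at 24 h, -2.59 at 48 h and -1.86 at 2 weeks), and Klk10 was -1.8, -2.97, -4.48 and -6.14 at these times. Klf15 was 1.67, 2.38, -0.04 and -0.38, and Mylip 1.57, 1.86, -0.93 and -0.97. These 2 were higher in the LCA at the first 2 times and not at the later ones. Insig1 was 0.50, 0.93, -0.40 and -1.09, above 0 up to 24 h and below 0 after.

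Between 12 h and 24 h no gene changed its difference by the test, 0 of 11341 (0%) by limma with 756 at an unadjusted p under 0.05. Ret, a receptor tyrosine kinase (-2.27 at 24 h, after -0.40 at 12 h), Brsk2, a kinase of the AMPK family (-1.97, after -0.28), Fbxl12, Zfp612 and Ermard were the 5 of smallest p (smallest adjusted p = 0.0993). Between 24 h and 48 h, in contrast, the difference changed for 2733 genes (24.1%), 1258 upward and 1475 downward. Among the largest upward changes at 48 h relative to 24 h were Hbegf, an EGF receptor ligand (3.98 at 48 h and -1.20 at 24 h), the immediate early factor Egr2 (3.49 and -1.35), the gap junction gene Gja1 (4.28 and -0.50), and Nr4a1 (1.72 and -2.58). Fmo1 (-1.91 and 2.20), Fmo2 (-2.72 and 1.08) and the clock output gene Dbp (-3.14 and 0.47) changed downward. Neutrophil markers had a median difference of 3.42 at 48 h and 0.23 at 24 h, macrophage markers 1.97 and 0.00, and cell cycle genes 1.21 and 0.19. The part of entering leukocytes, and of the batches, in the change from 24 h was not tested. The count was 1583 and 1482 without mouse 6 and mouse 9 of the 48 h group and 1135 when only the 2 groups compared entered the fit.

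**Figure D5:**
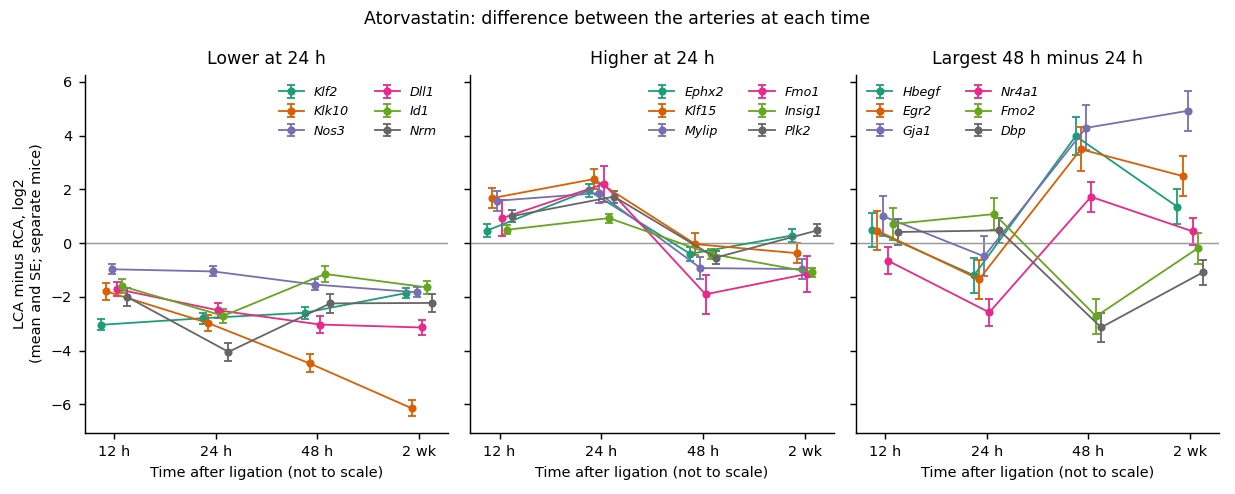
LCA minus RCA differences (log2, mean and SE) of 18 genes in atorvastatin-treated mice at 12 h, 24 h, 48 h and 2 weeks (5, 5, 4 and 5 mice), in panels of genes lower at 24 h, higher at 24 h, and changed between 24 h and 48 h. Klf2 stays between -3.04 and -1.86, Klf15 and Mylip lie at or below 0 at 48 h, and Hbegf, Egr2 and Gja1 lie above 3 only at 48 h or later.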

How the data were processed

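RNA of 78 carotid arteries from 39 mice was hybridised to Affymetrix mouse arrays, and the deposited log2 values of 45118 probe sets were made by the authors with RMA (background correction, quantile normalisation and summary of the probes), per the submitters' processing notes. Versions were not given in the sources used here. Of these, 81 control probe sets were set aside, 28898 carried 1 gene symbol by the platform annotation, 551 more than 1 and 15588 no symbol, and only those with 1 symbol were named. For 7180 of 17097 named genes several probe sets existed, and the one with the highest mean was used. Genes above the 50th percentile of the array on at least 4 arrays were tested, which left 11341. RMA forces equal distributions on all arrays, so a shift shared by most genes could not be seen.

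The RCA value was subtracted from the LCA value of each mouse, and limma 3.58.1 (statmod 1.5.0, R 4.3.3; lmFit and eBayes) fitted the differences of all 39 mice in 8 groups of treatment and time. The treatments and the times were compared within this fit, and the LCA and RCA arrays of the treatments were also compared separately. Pairing comes from the labels, which take both arteries from each mouse; deviations of the 2 arteries of a mouse from their group means correlated at 0.137, 0.147, 0.122, 0.270 and 0.026 in mice 6 to 10. In mouse 10 the highest correlation with an artery of another mouse was 0.258, above its own, and in mice 6 to 9 it was below their own. Whether mice were handled independently of each other is not stated. The p-values rest on the spread between mice pooled over all 8 groups, not on that of the 5 mice alone. The Gapdh ratio was compared by an exact sign-flip permutation test. Scripts were tested on simulated data.

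Named are the 12 largest rises and falls called and in the same direction in 5 of 5 mice, predicted genes left out, up to 4 called genes of each of 50 lists, a fixed set of flow and sterol genes, and, between treatments or times, the 6 largest called in each direction or the 5 of smallest p. Sele, Pecam1, Cdh5, Mpeg1, Acta2, Unc5b, Notch1, Sox17, Nrp1, Hey1, Selp, Bmp4, Nfkbiz, Sesn3, Foxo3, Bcl6, Trib1, Cdkn1b, Ptgis, Dusp1, Slc9a3r2, Xbp1, Col18a1 and Egr1, and other list members given as not passing, were named after their values were seen. The members and lists were chosen with earlier results of these data known. Alternatives were no pairing, no filter or a stricter one, the probe set with the largest spread, a second quantile normalisation, centred arrays, an intensity trend with robust variance, only the groups compared, the Gapdh ratio as a covariate and each mouse left out. Leaving out mice of the vehicle, 12 h and 48 h groups was added after seeing the data. Promoter windows are RefSeq sequences of GRCm38.p6, with gene starts of that annotation. Some genes and lists are not reported here.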

Additional observations from a re-analysis of the deposited data

Results flagged for a closer look

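In 11 of 162 groups of 5 differences examined, 1 mouse lay far from the other 4, where chance marks about 1 in 20 groups. In atorvastatin-treated mice at 24 h, the LCA minus RCA difference of Bcl2l1 was -2.87 in mouse 8 and between -1.15 and -0.64 in the others. Bmp6 was 1.51 in mouse 9, against 0.49 to 0.70. Ccn2 was -0.59 in mouse 7, against 2.27 to 2.78, and Klk10 was -1.90 in the same mouse, against -3.40 to -3.08. Fmo1 was 2.05 in mouse 9, against 2.23 to 2.25, a narrow gap in a group of close values. Fmo5 was 1.33 in mouse 8, against 0.87 to 0.99. Gja5 was -3.41 and Icam2 -2.14 in mouse 10, against -1.96 to -1.46 and -1.61 to -1.43. Pdk1 was -0.076 in mouse 9, against 0.80 to 1.04, and Trib3 was 0.39 in mouse 6, against 1.03 to 1.19. The Gapdh control ratio was -0.23 in mouse 6, against 0.56 to 0.74.

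The LCA minus RCA difference changed between 24 h and 48 h under atorvastatin for 2733 genes by limma. As 48 h minus 24 h on the log2 scale, the changes were 5.18 for Hbegf, 4.84 for Egr2, 4.78 for Gja1, 4.38 for Slfn4, 4.30 for Nr4a1 and 4.20 for Chil3, the last a secreted protein of myeloid cells. They were -4.10 for Fmo1, -3.80 for Fmo2, -3.73 for Fmo5, -3.61 for Dbp, -3.52 for Sphk2 and -3.35 for Sult1a1. The 2 times came from separate mice, 4 at 48 h, and batch and time cannot be told apart.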

How the results depend on the processing

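The count of 1485 genes that differed between LCA and RCA was 1232 without the pairing (no replicate block), of which 1203 were shared with the 1485. It was 1401 without a filter, 1460 with a stricter one, 1505 after a second quantile normalisation, 1486 with centred arrays, 1563 with an intensity trend and 1138 with only the groups compared. With the Gapdh ratio as covariate it was 945, and on leaving out 1 mouse in turn it lay between 824 and 1222 (974 without mouse 8, 824 without mouse 10). With the probe set of largest spread it was 1335, and the split turned to 638 higher and 697 lower. No gene differed between treatments in its LCA minus RCA difference, or between treatments in the LCA, under any alternative run. In the RCA the count ran from 0 to 2 on leaving out 1 mouse, 1 without mouse 6 and 2 without mouse 8. Between 12 h and 24 h the count was 1 without the pairing, 5 with the Gapdh covariate, and between 0 and 1 on leaving out 1 mouse of either group. Between 24 h and 48 h it was 2733, 2451 without the pairing, 1135 with only the groups compared, and between 1482 and 3685 on leaving out 1 mouse. The Gapdh ratio difference of 0.469 lay between 0.401 and 0.643 on leaving out 1 mouse, and that of beta-actin was 0.100.

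Of 138 named genes that were called, 76 were called under every alternative and 84 without each mouse in turn. With the probe set of largest spread the sign turned for Cdkn1b (-0.017), Fads2 (-0.12), Pdia6 (0.43) and Tfpi (-0.12), and the difference between treatments of Asb8 turned to -0.37. These genes have probe sets of opposite sign, and the cause was not tested. Of 1344 list counts under alternatives, 1170 were within 1.5 times the main count. The number of mice limits the precision of each value, and array values near the low end of the scale have no fixed relation to RNA amount.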
